A study of Mus musculus with 28 samples.

Results

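The calmodulin-dependent protein kinases are the enzymes through which a rise in neuronal calcium is turned into phosphorylation, and 10 genes of this family were followed here in nascent RNA from mouse forebrain cultures. They were chosen by gene name as Camkk1 and Camkk2 (the kinase kinases), Camk1, Camk1d and Camk1g (CaMKI), Camk4 (CaMKIV) and Camk2a, Camk2b, Camk2d and Camk2g (the subunits of CaMKII). All 10 were found among the 22919 genes listed in each of the authors' 7 comparison tables, and all 10 were among the 21192 genes that received a test. Nascent RNA was captured by Bru-seq, in which bromouridine (2 mM) is given for the last 20 minutes so that the reads report ongoing transcription.

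The cultures were dissociated cortex and hippocampus of CD1 embryos at embryonic day 18, pooled for each biological replicate from groups of embryos matched in sex ratio, and held neurons, astrocytes and oligodendrocyte precursor cells together. Every culture received a lentivirus on day in vitro 14, with a control hairpin (shCtrl) or with one directed at Rai1 (shRai1), and was harvested on day 17 after 4 hours in vehicle (water), 1 µM tetrodotoxin (TTX), which blocks sodium channels and silences the network, or 20 µM bicuculline (BIC), which blocks GABA-A receptors and raises activity. The 16 libraries formed 6 groups of 3, except shCtrl vehicle (2, numbered 1 and 2) and shCtrl BIC (2, numbered 2 and 3), so comparisons with these groups set unequal sets of replicate numbers against each other. All groups were thus infected. The 12 RAI1 ChIP-seq samples were not analysed here.

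Calcium entering through synaptic receptors and voltage-gated channels binds calmodulin, and the loaded calmodulin opens the autoinhibited active site of these kinases. CaMKII assembles into multi-subunit rings that phosphorylate themselves and can stay active after calcium has fallen, a property tied to plasticity at excitatory synapses. CaMKI and CaMKIV need a second step, phosphorylation by CaMKK1 or CaMKK2, and CaMKIV in the nucleus phosphorylates CREB and its partners.

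Values are the authors' own summaries, so the spread of single libraries is not shown. Each log2 change has a standard error (SE) from the authors' fit over all groups, and a gene is called at an adjusted p under 0.05. The mean normalized count over all libraries ranged among the members from 175 for Camk1 to 100731 for Camk1d, against a median of 107 over the tested genes. A single pooled FPKM, which is a level per length and so can be compared between genes, was available for each shCtrl condition with bounds that the authors give, but per-library depth cannot be read from it. The targeted gene gave no check of the arm labels: in the authors' deposited tables Rai1 in shRai1 against shCtrl stood at 0.16 with vehicle (SE 0.073), -0.12 with TTX (SE 0.064) and 0.03 with BIC (SE 0.073), none of them called. Directions between the arms below rest on the labels. Markers of the labelled cell types were present in shCtrl vehicle, with a summed FPKM of 456 over 6 general neuron markers, 295 over 7 astrocyte markers and 129 over 5 oligodendrocyte-lineage markers. The sums for other types were lower, with 19.3 over 5 microglial markers and 0.628 over 3 endothelial markers. Of the microglial sum Cx3cr1 alone gave 14.7, above some markers of the labelled types, such as Aldh1l1 at 11.8 and Aqp4 at 5.68. In such mixed cultures fewer cells of a type and less nascent RNA per cell cannot be told apart.

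By FPKM in vehicle the CaMKII alpha and beta genes stood far above the rest of the family. Camk2a, whose product is the leading CaMKII subunit of excitatory forebrain neurons, had 130 FPKM (bounds 99.6 to 161), which placed it at percentile 96.8 of all listed genes. Camk2b, whose product also binds actin, had 74.8 FPKM (57.8 to 91.8). These bounds did not overlap, and neither overlapped those of the gene next in order. The other 8 genes followed closely on each other, from Camk2d at 17.2 FPKM (12.9 to 21.5) through Camk4 at 16.6, Camkk2 at 16.4, Camk2g at 15.5, Camk1d at 12.6, Camk1g at 11.0 and Camk1 at 8.76 to Camkk1 at 6.79 (4.66 to 8.93). Among these 8 the bounds of each gene overlapped those of its neighbour, so the order of neighbours is not resolved. Further apart, the bounds of Camkk1 lay below those of Camk2d, Camk4, Camkk2, Camk2g and Camk1d, and the bounds of Camk1 lay below those of Camk2d and Camk4. The order differed by the mean normalized count per kb, which covers all libraries and treatments: Camk1d was highest at 239, Camk2a and Camk2b were close at 92.7 and 88.2, Camkk1 (20.1) stood beside Camk2d (19.3), and Camk1 and Camk4 were both at 10.3. The order thus depends on the measure.

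**Figure D1:**
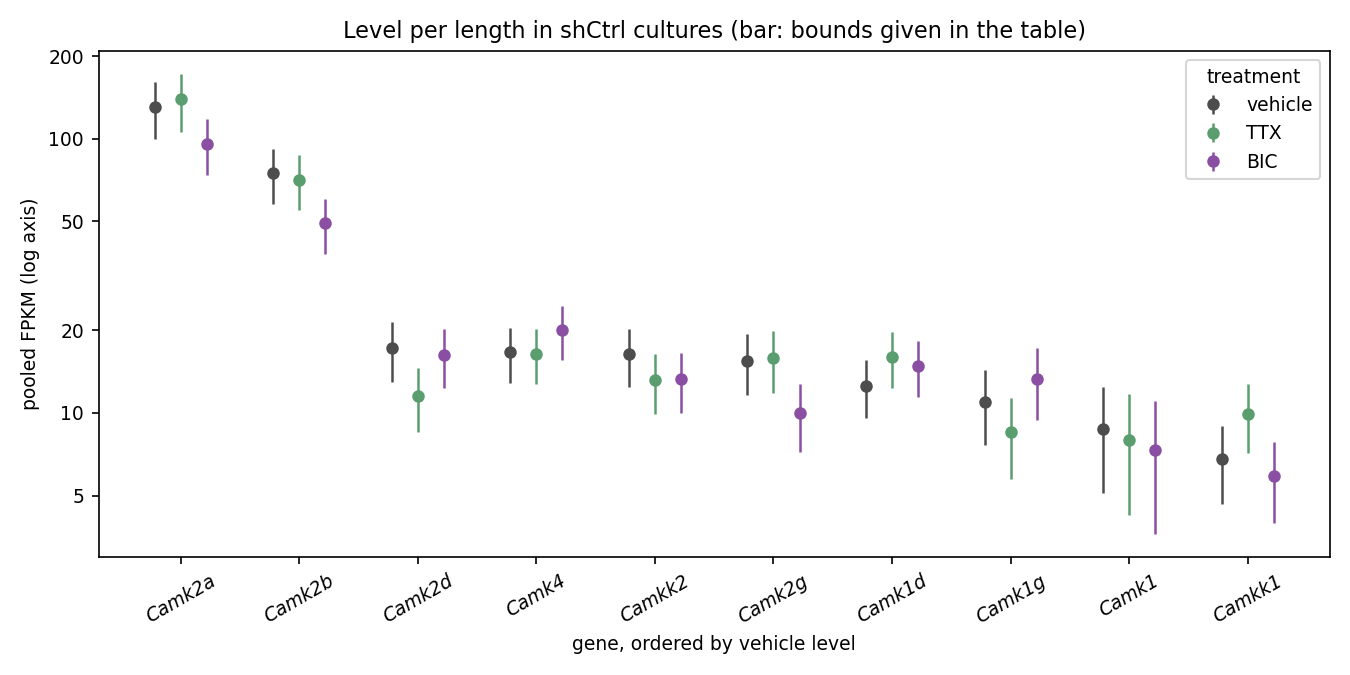
Pooled FPKM of each gene in the 3 shCtrl conditions on a log axis, with the bounds given in the authors' table as bars. Camk2a and Camk2b lie above the other 8 genes in all 3 conditions, and within each gene the bars of the drugs overlap that of vehicle.

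The promoters of 3 genes are shown here for their responses in the shCtrl comparison tables below: Camk1g and Camk2d fell on silencing and rose on raised activity, the rise of Camk2d being one that the FPKM does not show, and Camkk2 fell under both drugs. Each is the 250 bases before the RefSeq start of GRCm38.p6, 5′ to 3′ on the gene's strand. Capitals mark GC boxes (GGGCGG or CCGCCC), the one motif of those searched that occurs in them.
Camk1g, chr1:193370283-193370532, minus strand: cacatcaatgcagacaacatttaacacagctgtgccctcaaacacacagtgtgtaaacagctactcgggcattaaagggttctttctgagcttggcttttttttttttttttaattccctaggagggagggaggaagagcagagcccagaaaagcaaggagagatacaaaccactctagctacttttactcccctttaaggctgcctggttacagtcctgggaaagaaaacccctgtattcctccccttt
Camk2d, chr3:126596701-126596950, plus strand: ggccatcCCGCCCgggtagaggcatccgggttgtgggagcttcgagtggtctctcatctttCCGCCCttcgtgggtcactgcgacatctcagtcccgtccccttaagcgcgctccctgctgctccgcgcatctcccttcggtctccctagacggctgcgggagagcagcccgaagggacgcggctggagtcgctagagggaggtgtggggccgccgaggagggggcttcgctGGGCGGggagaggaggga
Camkk2, chr5:122779411-122779660, minus strand: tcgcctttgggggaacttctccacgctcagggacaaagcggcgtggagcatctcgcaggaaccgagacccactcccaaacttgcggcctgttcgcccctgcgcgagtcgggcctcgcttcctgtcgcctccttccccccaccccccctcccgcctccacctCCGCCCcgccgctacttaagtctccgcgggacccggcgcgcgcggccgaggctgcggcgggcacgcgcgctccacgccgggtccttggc

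The 3 windows differ in base composition. Camk1g had 44.8% G or C and 1 CG pair, below the median of 52.4% over all 32851 RefSeq promoters of the same length, whereas Camk2d had 68.4% and 23 CG pairs and Camkk2 had 72.4% and 32. GC boxes, counted on both strands, numbered 0, 3 and 1 in that order, and 32.7% of all promoters hold at least 1. The full cAMP response element TGACGTCA (in 1.55% of all promoters), the AP-1 motif TGANTCA (6.75%) and the short element TGACG on either strand (17.8%) occurred in none of the 3, nor did the EGR motif GCGNGGGCG on either strand (4.70%) or TATAAA (7.59%). Sequences were matched for 7 of the 10 members, with 8 windows in all. In the others the short element occurred once in Camk1 and once in Camkk1, and Camk2b, at 78.4% G or C, held 3 EGR matches, with overlapping matches counted.

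Silencing was assessed first. TTX lowered 4 and raised 2 of the 10 genes in shCtrl in the authors' deposited table, and lowered 5 and raised 2 in shRai1. Over all genes with an adjusted p, 26.7% were called in shCtrl (11.8% higher, 14.9% lower) and 30.5% in shRai1 (13.7% higher, 16.8% lower). Where the mean normalized count reached 100, as in all members, the shares were 34.4% and 38.4%. The median change over the members was -0.18 in shCtrl and -0.25 in shRai1, beside 0.00062 and -0.0015 over all tested genes. Raised activity was assessed next, and the difference in counts between the drugs was not tested. BIC lowered 5 and raised 3 in each arm in the authors' deposited tables, against 34.4% of genes called in shCtrl (17.4% higher, 17% lower) and 42.5% in shRai1 (21.3% higher, 21.3% lower). At a mean count of at least 100 the shares were 46.5% and 58.9%. The members' median under BIC was -0.43 in shCtrl and -0.21 in shRai1, beside -0.0010 and 0.0042 over all tested genes. Within an arm the TTX and BIC comparisons share their vehicle libraries.

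Cell type markers moved in these comparisons too. Under BIC in shCtrl 3 of 6 general neuron markers rose and 2 fell (median 0.24), 2 of 7 astrocyte markers fell (median -0.17), 2 of 4 excitatory neuron markers rose and 2 fell (median -0.03), and 3 of 4 inhibitory neuron markers rose and 1 fell (median 0.56), per the authors' deposited table. Of the 5 microglial markers 2 rose there, and the other 3 had no adjusted p and so could not be called. Under TTX in shCtrl 1 of 6 general neuron markers rose and 2 fell (median -0.03), 3 of 7 astrocyte markers fell (median -0.21), and 2 of 4 inhibitory neuron markers fell and 1 rose (median -0.43) in the authors' deposited table. The excitatory ones had 1 rise there (median 0.0076). Of 5 oligodendrocyte-lineage markers 4 fell under TTX (median -0.70) and 1 under BIC (median -0.24) in shCtrl, per the authors' deposited tables. In shRai1 4 of these 5 rose under TTX (median 0.47) and 0 were called under BIC, where 1 of 5 microglial markers rose. In shRai1 the general neuron markers had 3 rises and 2 falls under BIC and 1 fall under TTX, the inhibitory ones 3 rises and 1 fall under BIC and 3 falls under TTX, the excitatory ones 2 rises and 2 falls under BIC and 1 rise under TTX, and the astrocyte ones 1 rise under BIC and 2 rises and 1 fall under TTX, per the authors' deposited tables. The summed FPKM in shCtrl from vehicle to TTX and BIC went from 456 to 419 and 372 over the general neuron markers, from 262 to 171 and 334 over the inhibitory markers, from 116 to 98.4 and 69.6 over the excitatory ones, from 295 to 242 and 207 over the astrocyte ones and from 19.3 to 20.1 and 28.1 over the microglial ones. Over the oligodendrocyte-lineage markers it went from 129 to 92.0 and 108. Of the inhibitory sums Dlx1 alone gave 71.7, 17.6 and 44.2 FPKM, whereas its change under TTX was 0.46 (SE 0.15), called higher, in the authors' deposited table. Some general neuron markers also differed by measure under BIC. Stmn2 went from 79.8 to 59.1 FPKM, whereas its change was 0.44 (SE 0.11), called higher, in the authors' deposited table. Syt1 went from 71.4 to 58.7 FPKM with a change of 0.03 (SE 0.15), not called. Snap25 and Map2 rose and Tubb3 and Rbfox3 fell by both measures. For astrocytes the measures differed in some markers only. Under BIC the FPKM of Slc1a3 went from 47.8 to 34.3, of Slc1a2 from 37.8 to 29.5 and of Aldh1l1 from 11.8 to 7.29. Their changes were -0.03 (SE 0.091), 0.04 (SE 0.10) and -0.04 (SE 0.099), not called, in the authors' deposited table. Aldoc went from 100 to 59.6 FPKM and Aqp4 from 5.68 to 3.72. Both were called lower there, by 0.74 (SE 0.17) and 0.48 (SE 0.17). Gfap and Gja1 also lay below vehicle by both measures and were not called. The part of these markers in the responses of the kinase genes was not tested.

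**Figure D2:**
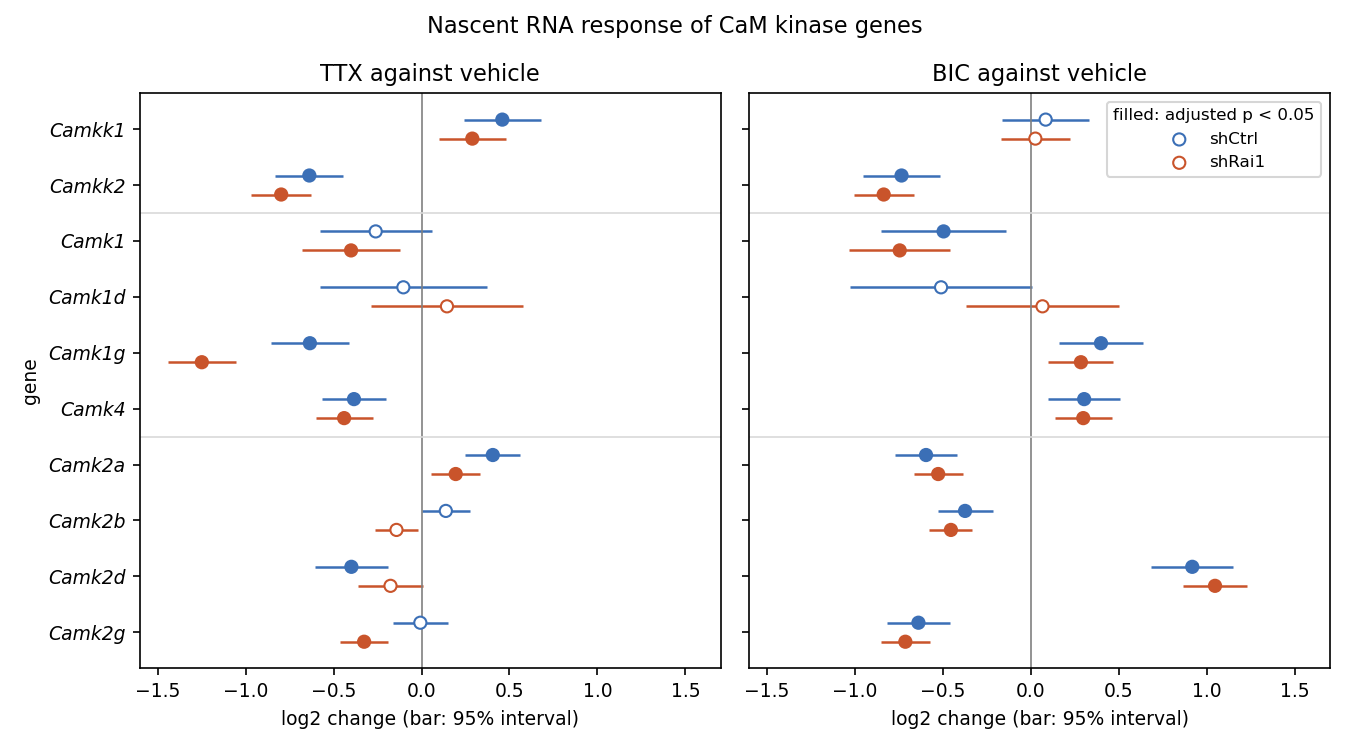
Log2 change of each gene under TTX (left) and BIC (right) against vehicle, in shCtrl (blue) and shRai1 (orange), with 95% intervals as bars and filled points for an adjusted p under 0.05. Camk1g and Camk4 lie left of 0 under TTX and right of it under BIC, Camkk2 lies left of 0 in both panels, and Camk2d has the largest rise.

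Of the upstream kinases, Camkk2 was lowered by both silencing and raised activity. Its product phosphorylates CaMKI, CaMKIV and the energy sensor AMPK. Camkk2 lies on chromosome 5 from 123181180 to 123229419 (mm9, the build named in the submitters' processing notes for these libraries, which holds for all gene positions below). Its shCtrl level was 16.4 FPKM with vehicle, 13.2 with TTX and 13.3 with BIC. In the authors' deposited tables it fell by 0.64 under TTX in shCtrl (SE 0.098, adjusted p 2.11e-09) and by 0.80 in shRai1 (SE 0.087, adjusted p 1.86e-18). The falls under BIC were of like size, 0.73 in shCtrl (SE 0.11, adjusted p 4.52e-10) and 0.84 in shRai1 (SE 0.087, adjusted p 2.08e-20), per the authors' deposited tables, or 1.56-fold to 1.78-fold over the 4 comparisons. Its RefSeq interval overlaps that of P2rx4, an ATP-gated channel gene with a mean normalized count of 159 against 1048 for Camkk2. Whether the counting used strand is not given in the sources used here.

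Camkk1, the other upstream kinase, behaved differently. It lies on chromosome 11 from 72832510 to 72855567. Its FPKM in shCtrl was 6.79 with vehicle, 9.95 with TTX and 5.90 with BIC. The authors' deposited tables gave a rise of 0.46 under TTX in shCtrl (SE 0.11, adjusted p 0.000353) and of 0.29 in shRai1 (SE 0.098, adjusted p 0.0138). Under BIC its change was 0.08 (SE 0.13, adjusted p 0.664) and 0.03 (SE 0.10, adjusted p 0.874), per the authors' deposited tables, neither called. The 2 kinase kinase genes thus moved in opposite directions when the network was silenced.

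Among the CaMKI and CaMKIV genes, Camk1g moved both ways, down on silencing and up on raised activity. Camk1g encodes a membrane-anchored CaMKI of neurons and lies on chromosome 1 from 195172540 to 195196476. Its FPKM in shCtrl was 11.0 in vehicle (bounds 7.62 to 14.3), 8.54 with TTX (5.75 to 11.3) and 13.3 with BIC (9.45 to 17.2). It fell by 0.63 under TTX in shCtrl (SE 0.11, adjusted p 2.61e-07) and by 1.25 in shRai1 (SE 0.099, adjusted p 2.97e-34), per the authors' deposited tables, which is 1.55-fold and 2.38-fold. BIC raised it by 0.40 in shCtrl (SE 0.12, adjusted p 0.00415) and by 0.29 in shRai1 (SE 0.094, adjusted p 0.00721), per the authors' deposited tables. From silenced to raised activity its estimated level was 2.05 times higher in shCtrl and 2.90 times in shRai1. These ratios stand without an error, because the variance of the shared vehicle group cannot be separated from the deposited errors.

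Camk4, the nuclear kinase that acts on CREB, moved the same way. It lies on chromosome 18 from 33098695 to 33355421. The authors' deposited tables gave falls of 0.38 under TTX in shCtrl (SE 0.094, adjusted p 0.000356) and 0.44 in shRai1 (SE 0.083, adjusted p 1.30e-06). Under BIC it rose by 0.30 in shCtrl (SE 0.10, adjusted p 0.0130) and by 0.30 in shRai1 (SE 0.082, adjusted p 0.000985), per the authors' deposited tables. The FPKM showed the rise, from 16.6 in vehicle to 20.1 in BIC, and little of the fall, at 16.5 in TTX.

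Camk1, the ubiquitous soluble CaMKI, had the lowest count of the family and was lowered by raised activity. BIC lowered it by 0.50 in shCtrl (SE 0.18, adjusted p 0.0209) and by 0.74 in shRai1 (SE 0.15, adjusted p 1.95e-06), per the authors' deposited tables. Under TTX it changed by -0.26 in shCtrl (SE 0.16, adjusted p 0.251) and fell by 0.40 in shRai1 (SE 0.14, adjusted p 0.0186), per the authors' deposited tables. Its FPKM in shCtrl was 8.76 with vehicle, 7.97 with TTX and 7.33 with BIC. Camk1, on chromosome 6 from 113276970 to 113293916, shares this interval in the FPKM table with Ogg1, a DNA repair gene with a mean normalized count of 52.5.

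Camk1d, the CaMKI delta gene, was not called in any of the 7 comparisons, and its counts stood apart. It lies on chromosome 2 from 5214503 to 5635808. Its change under TTX was -0.10 in shCtrl (SE 0.24) and 0.14 in shRai1 (SE 0.22) in the authors' deposited tables, and under BIC it was -0.51 in shCtrl (SE 0.26, adjusted p 0.127) and 0.07 in shRai1 (SE 0.22, adjusted p 0.853). Its mean normalized count of 100731 was exceeded by 3 genes, yet its FPKM of 12.6 in vehicle was ordinary. Per kb and per unit of FPKM its count was 16.7, which is 7.92 times the median of 2.11 over 10668 genes and exceeded by 13 of them, while the other 9 members lay between 0.578 and 2.80. The SE of its change was also wide, 0.22 to 0.26 against medians of 0.10 to 0.13 over the 10778 genes whose mean count reached 100. Among the 617 genes with a mean count of at least 5000 its SE stood at percentile 97.7 in each of the 7 tables. The deposited changes of Camk1d are therefore uncertain, and the FPKM moved otherwise, from 12.6 in vehicle to 16.0 in TTX and 14.9 in BIC. In RefSeq the Camk1d interval overlaps the long noncoding RNA genes Gm36906 and Gm36853 and the pseudogene Gm13216. The source of its high count was not tested. Long noncoding RNA genes also overlap Camk2d (Gm15551), Camk4 (2310026I22Rik), Camk2a (Gm46632) and Camkk1 (4732414G09Rik) there.

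**Figure D3:**
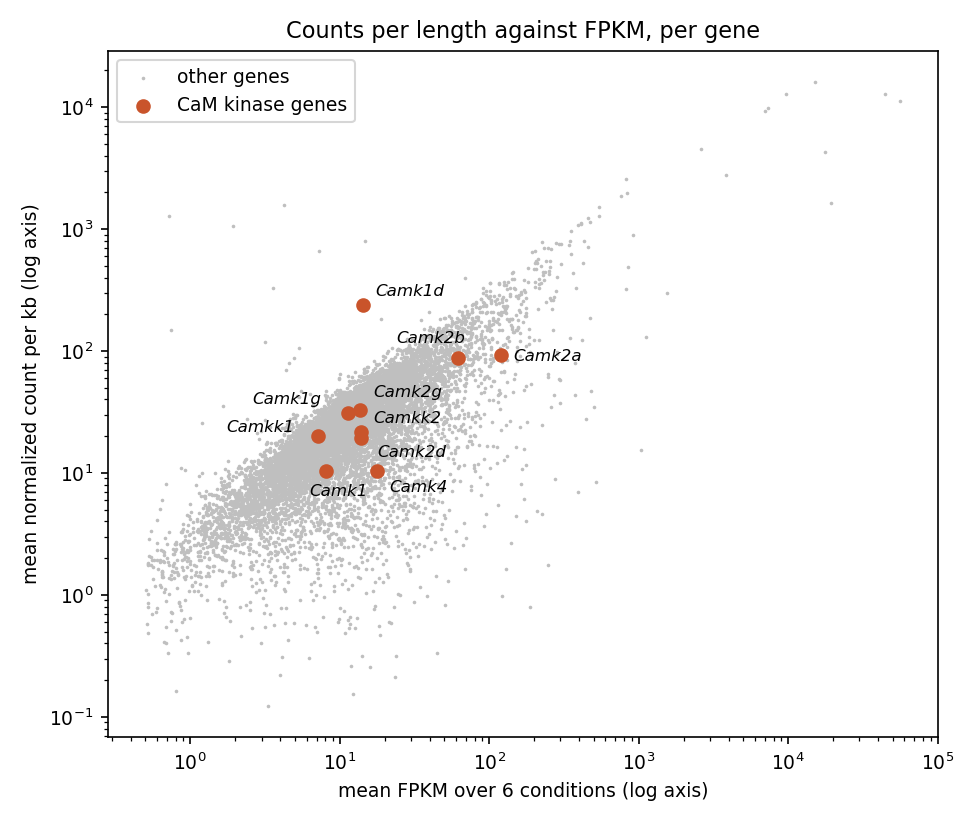
Mean normalized count per kb of gene length against mean FPKM over 6 conditions, 1 point per gene on log axes, with the 10 kinase genes in orange. Camk1d lies above the cloud at 239 counts per kb and 14.3 FPKM, and the other 9 lie within it.

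The CaMKII subunit genes divided. Camk2a rose on silencing and fell on raised activity. It lies on chromosome 18 from 61085286 to 61147806, an interval shared in the FPKM table with 2 microRNA genes. Its FPKM in shCtrl was 130 in vehicle (bounds 99.6 to 161), 139 with TTX (106 to 173) and 96.0 with BIC (74.0 to 118). The authors' deposited tables gave rises of 0.41 under TTX in shCtrl (SE 0.080, adjusted p 5.77e-06) and 0.19 in shRai1 (SE 0.071, adjusted p 0.0231). BIC lowered it by 0.60 in shCtrl (SE 0.091, adjusted p 7.85e-10) and by 0.53 in shRai1 (SE 0.071, adjusted p 1.43e-12), per the authors' deposited tables. Between the drugs its estimated level was 2.00 times higher in TTX than in BIC in shCtrl and 1.65 times in shRai1, the reverse of Camk1g and Camk4.

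Camk2b and Camk2g fell under BIC with it. Camk2b lies on chromosome 11 from 5869669 to 5965751, and its FPKM in shCtrl went from 74.8 in vehicle and 70.9 in TTX to 49.3 in BIC. Its falls under BIC were 0.37 in shCtrl (SE 0.080, adjusted p 2.00e-05) and 0.45 in shRai1 (SE 0.062, adjusted p 3.16e-12), per the authors' deposited tables. Under TTX Camk2b changed by 0.14 in shCtrl (SE 0.071, adjusted p 0.142) and -0.14 in shRai1 (SE 0.062, adjusted p 0.0661), neither called in the authors' deposited tables. Camk2g, whose product has been described as a carrier of calmodulin to the nucleus, lies on chromosome 14 from 21554095 to 21613310. Its FPKM in shCtrl was 15.5 with vehicle, 15.8 with TTX and 10.01 with BIC. BIC lowered Camk2g by 0.64 in shCtrl (SE 0.091, adjusted p 3.95e-11) and by 0.71 in shRai1 (SE 0.071, adjusted p 3.32e-22), per the authors' deposited tables. Under TTX it changed by -0.01 in shCtrl (SE 0.080, adjusted p 0.969) and fell by 0.33 in shRai1 (SE 0.070, adjusted p 3.18e-05), per the authors' deposited tables.

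Camk2d, the CaMKII delta gene with splice forms that enter the nucleus, went against the other 3 subunit genes under BIC. BIC raised it by 0.92 in shCtrl (SE 0.12, adjusted p 1.84e-13) and by 1.05 in shRai1 (SE 0.094, adjusted p 1.19e-27), per the authors' deposited tables, or 1.89-fold and 2.07-fold. Under TTX it fell by 0.40 in shCtrl (SE 0.11, adjusted p 0.00132) and changed by -0.18 in shRai1 (SE 0.094, adjusted p 0.150), per the authors' deposited tables. Camk2d lies on chromosome 3 from 126299891 to 126547972. The pooled FPKM in shCtrl did not show the rise, with 17.2 in vehicle (bounds 12.9 to 21.5) and 16.3 in BIC (12.3 to 20.3), and it did show the fall, to 11.5 in TTX (to 14.6 at the upper bound). The rise is therefore uncertain. Camk2d was the 1 of 8 members called under BIC in shCtrl whose FPKM ratio had the other sign. Over genes with a mean count of at least 100 this held for 477 of 4998 called genes (9.54%). Under TTX it held for 0 of 6 members and for 308 of 3695 called genes (8.34%).

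The arms were then compared directly. Of the 10 genes, 1 differed between shRai1 and shCtrl in vehicle (0.857% of genes with an adjusted p were called, and 1.06% at a mean count of at least 100). None did in TTX (0 of 10, with 0.0283% of genes called, or 0.0557% at that count) or under BIC (0 of 10, with 0.00944%, or 0.0186%), by the DESeq2 tests of the authors' deposited tables. An unadjusted p under 0.05 in these tests was found for 4 of 10 members in vehicle, beside 1642 of the 20107 genes named there. It was found for 3 of 10 in TTX and 1 of 10 under BIC, beside 700 and 621 of 21192 tested genes. The gene called was Camk1g, which was 0.40 higher in shRai1 in vehicle (SE 0.11, adjusted p 0.0405) in the authors' deposited table, or 1.32-fold. The call is lost without the authors' filter on low genes (adjusted p 0.0603), and the shCtrl vehicle group had 2 libraries. That table has no gene column, so its rows were named here by their mean count, which was unique for all 10 members. Shares and counts of genes in that comparison are over the rows so named. In TTX and in BIC Camk1g stood at -0.22 (SE 0.10) and 0.28 (SE 0.11), neither called in the authors' deposited tables (adjusted p 1.00 in both). The 3 other members with an unadjusted p under 0.05 in vehicle were Camk2b (0.14, SE 0.071), Camk2g (0.16, SE 0.080) and Camk1d (-0.48, SE 0.24) in the authors' deposited table.

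**Figure D4:**
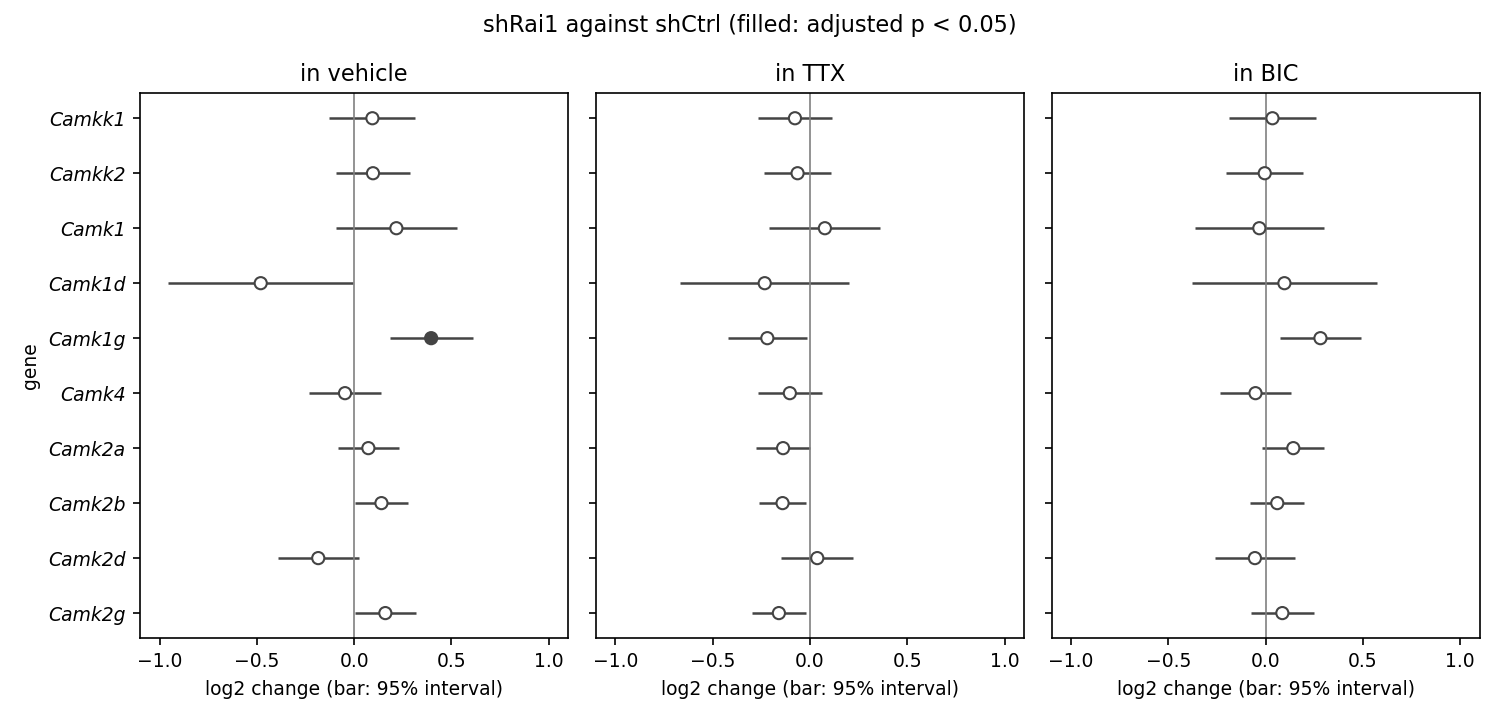
Log2 change of each gene in shRai1 against shCtrl in vehicle, TTX and BIC, with 95% intervals as bars and filled points for an adjusted p under 0.05. Camk1g in vehicle, at 0.40, is the single filled point.

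Whether a drug response differed between the arms was tested on the difference of the deposited responses, shRai1 less shCtrl. For TTX 1 of the 10 genes passed, against 0.943% of 18241 genes (1.40% at a mean count of at least 100). In this Wald test 4 of 10 had an unadjusted p under 0.05, as did 1651 of the 18241. Camk1g fell further in shRai1, by a difference of -0.61 (SE 0.15, 95% interval -0.91 to -0.32, adjusted p 0.0109, Wald test with Benjamini-Hochberg adjustment). This difference is the change between the arms in TTX (-0.22) less that in vehicle (0.40), so it shares its vehicle libraries with the knockdown result for Camk1g above. A difference below 0 was found in 8 of 10 members, with a median of -0.17 beside -0.0015 over all tested genes. Camk2b (-0.28, SE 0.094, unadjusted p 0.00282) and Camk2g (-0.32, SE 0.11, unadjusted p 0.00270) came next and did not pass the Wald test with adjustment (adjusted p 0.147 and 0.145), nor did Camk2a (-0.21, SE 0.11, adjusted p 0.548). The difference for Camk2d was 0.22 (SE 0.14, 95% interval -0.06 to 0.50), so its call in 1 arm alone is no sign that the arms differed. For BIC 0 of 10 passed (Wald test with Benjamini-Hochberg adjustment), and 0 had an unadjusted p under 0.05 beside 552 of the 18241 genes. Of these genes 0.0219% were called (0.0372% at a mean count of at least 100). Under BIC 7 of 10 members lay below 0, with a median of -0.067 beside 0.012 over all tested genes. All 10 members come from the same libraries, and the TTX and BIC differences share their vehicle libraries. These counts of signs were not tested. Leaving out Camk1d, the intervals of the BIC difference lay between -0.71 and 0.43 on the log2 scale. Camk1d had the largest difference of the 10, 0.58 (SE 0.34, 95% interval -0.10 to 1.25).

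Markers of another cell type also moved in the comparisons of Camk1g between arms. Oligodendrocyte-lineage markers (Pdgfra, Cspg4, Olig1, Olig2 and Sox10) were lower in shRai1 in vehicle for 4 of 5, with a median of -0.78, in the authors' deposited table. Under TTX 4 of 5 fell in shCtrl (median -0.70) and 4 of 5 rose in shRai1 (median 0.47), again per the authors' deposited tables. Between the arms the median of these markers was 0.50 in TTX and -0.49 in BIC. Pdgfra alone was called there, higher in shRai1 in TTX (0.50, SE 0.11) and lower in BIC (-0.90, SE 0.13), per the authors' deposited tables. General neuron markers in vehicle were called higher in shRai1 for 1 of 6, with a median of -0.13. Astrocyte markers in vehicle were below 0 in shRai1 for 7 of 7, with a median of -0.25, and 1 of them, Aldoc, was called lower (-0.56, SE 0.15, adjusted p 0.0392), per the authors' deposited table. The part of the cell mixture in the Camk1g results was not tested.

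The genes with the pattern nearest to Camk1g, the member with the largest single change, were Unc13a, Cdc42ep3, Spag4, Prok2 and Sema7a. Nearness was the Euclidean distance over the 4 drug responses, which share vehicle libraries within an arm, among 12332 genes with a mean count of at least 50. Unc13a, which encodes a protein that primes synaptic vesicles, was nearest at a distance of 0.28. Its changes were -0.73 and -0.998 under TTX and 0.32 and 0.30 under BIC in shCtrl and shRai1, per the authors' deposited tables. Prok2, which encodes a secreted signalling peptide, had -0.77, -1.17, 0.54 and 0.54 in the same order of the authors' deposited tables.

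The rest of the pathway was read from 5 lists with 46 genes. In shCtrl TTX raised 9 and lowered 8 of the 46 and BIC raised 12 and lowered 16 in the authors' deposited tables. In shRai1 the counts were 7 and 18 under TTX and 13 and 16 under BIC. Over all genes the shares called were 26.7% and 34.4% in shCtrl and 30.5% and 42.5% in shRai1 (34.4%, 46.5%, 38.4% and 58.9% at a mean count of at least 100). The median change over the 46 genes lay between -0.01 and -0.09 in the 4 responses. Between the arms 0 of 46 were called with any of the 3 treatments in the authors' deposited DESeq2 tables, where 0.857%, 0.0283% and 0.00944% of all genes were called. An unadjusted p under 0.05 was found there for 1642 of 20107 named genes in vehicle, and for 700 in TTX and 621 under BIC of 21192 tested genes.

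Of the 3 calmodulin genes, which encode the same protein, Calm2 fell in shCtrl by 0.29 on silencing (SE 0.080) and by 0.38 on raised activity (SE 0.090), and Calm3 by 0.50 on raised activity (SE 0.12), per the authors' deposited tables. Of the 11 related kinases and pseudokinases, 4 rose and 1 fell under TTX and 5 rose and 4 fell under BIC in shCtrl (26.7% and 34.4% of all genes were called). Dclk3, a doublecortin-like kinase, rose by 1.49 (SE 0.15) under TTX and fell by 1.44 (SE 0.18) under BIC, as the authors' deposited tables give it. In the authors' deposited tables its relative Dclk1 fell by 0.58 (SE 0.11) under TTX and rose by 1.14 (SE 0.12) under BIC. Dapk1, a calmodulin-regulated death-associated kinase, rose by 0.55 (SE 0.079) under TTX and fell by 0.45 (SE 0.089) under BIC, per the authors' deposited tables.

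The 7 inhibitors, CaMK phosphatases and calmodulin buffers had 1 rise and 2 falls under TTX, and 2 rises and 4 falls under BIC in shCtrl, beside the same shares of 26.7% and 34.4% over all genes. The 2 phosphatases that dephosphorylate CaM kinases went opposite ways. Ppm1e fell by 0.39 (SE 0.085) under TTX and rose by 0.76 (SE 0.095) under BIC, while Ppm1f rose by 0.44 (SE 0.097) under TTX and fell by 0.61 (SE 0.11) under BIC, per the authors' deposited tables. Pcp4, a small protein that binds calmodulin, fell by 1.06 (SE 0.12) under BIC, per the authors' deposited table.

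Of the 9 genes of calcineurin, the calmodulin-dependent phosphatase, and its regulators, 1 rose and 1 fell under TTX and 2 rose and 2 fell under BIC in shCtrl, again beside 26.7% and 34.4% over all genes. Akap5, the scaffold that holds calcineurin at synapses, fell under both drugs, by 0.55 (SE 0.13) and 1.31 (SE 0.15), in the authors' deposited tables. Rcan3 rose by 0.49 (SE 0.12) under TTX and fell by 0.46 (SE 0.14) under BIC, and Rcan2 rose by 0.62 (SE 0.11) under BIC, per the authors' deposited tables, both encoding calcineurin regulators.

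Of the 16 substrates and effectors, 3 rose and 3 fell under TTX and 3 rose and 4 fell under BIC in shCtrl, beside shares of 26.7% and 34.4% over all genes (34.4% and 46.5% at a mean count of at least 100). Hdac5, a deacetylase that CaM kinases send out of the nucleus, fell by 1.32 (SE 0.10) under TTX, and Crtc1, a CREB coactivator, rose by 0.39 (SE 0.090) under TTX and fell by 0.29 (SE 0.10) under BIC, per the authors' deposited tables. Atf1, a CREB relative, rose by 0.47 (SE 0.096) under BIC, per the authors' deposited table. The genes of the catalytic subunits of AMPK, a target of CaMKK2, went opposite ways under BIC in shCtrl: Prkaa1 rose by 0.49 (SE 0.10) and Prkaa2 fell by 0.47 (SE 0.10), per the authors' deposited table. Prkaa2 also fell under TTX, by 0.36 (SE 0.091), where Prkaa1 stood at 0.21 (SE 0.093) and was not called in the authors' deposited table. These values of named pathway genes are from shCtrl. In shRai1 under TTX Crtc1 (0.11, SE 0.079) and Calm2 (-0.14, SE 0.070) were not called, per the authors' deposited table. Prkaa1 was called higher there (0.24, SE 0.081). The other named calls of the lists were also called in shRai1, in the same direction.

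**Figure D5:**
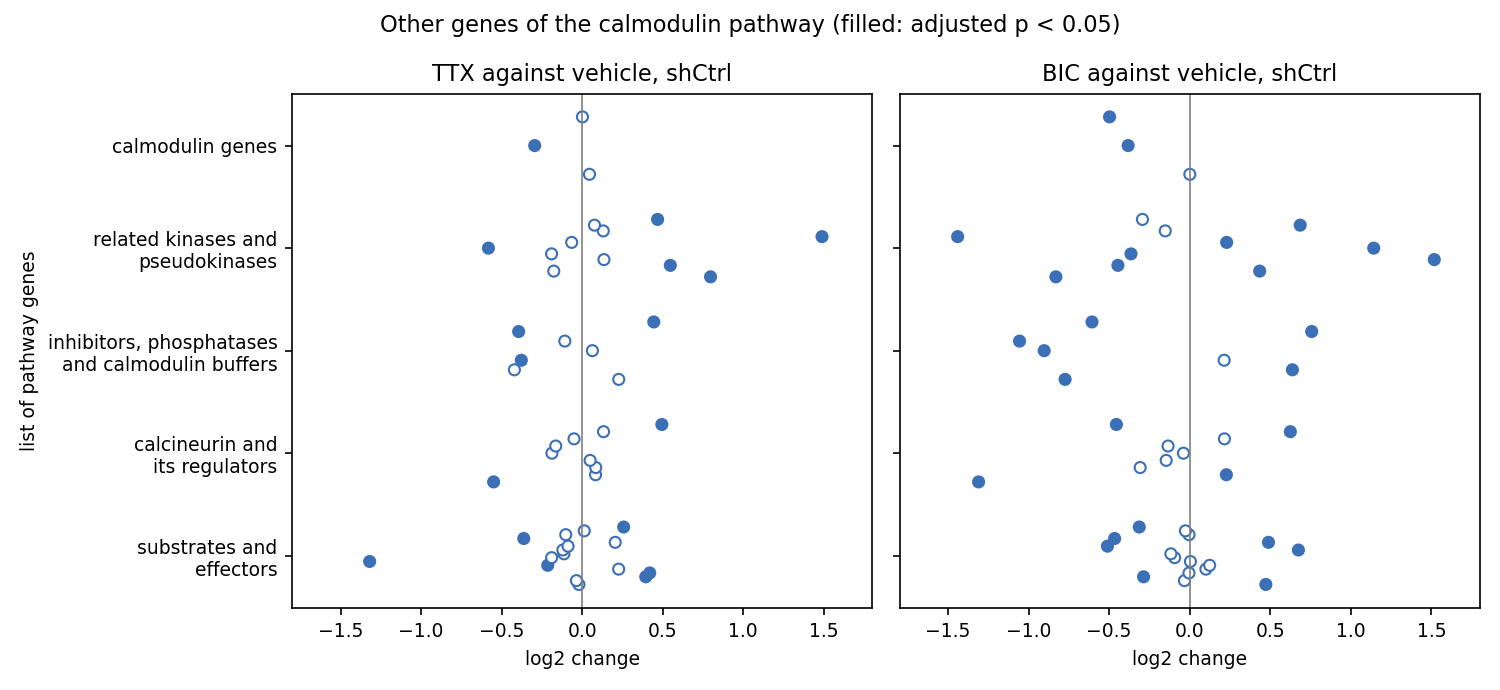
Log2 change of 46 other genes of calmodulin signalling in shCtrl under TTX (left) and BIC (right), 1 point per gene in 5 lists, filled for an adjusted p under 0.05. Each of the 4 longer lists holds filled points on both sides of 0 in both panels, with 9 rises and 8 falls under TTX and 12 and 16 under BIC over all lists.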

How the data were processed

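Stranded single-end reads of 16 Bru-seq libraries, per the series' design text, were reduced by the authors to the tables used here. TopHat2 2.1.0, Bowtie2 2.2.6, DESeq2 and the build mm9 are named in the submitters' processing notes, and their settings are not given in the sources used here. The 7 comparison tables, made with DESeq2 per the file names, give for each gene a mean normalized count (a signal the authors averaged over libraries after scaling), a log2 change, its standard error, a Wald score, and p-values before and after adjustment, as the file headers name them. The authors' FPKM table holds 1 pooled value with bounds per condition. The shRai1 columns of that table were used only in means over 6 conditions, because their names did not follow the comparisons. Starts in that table are taken as 0-based and printed 1-based: this made 8029 lengths equal to RefSeq's, against 510 otherwise, though for 0 of the 10 members the length equalled RefSeq's.

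The vehicle table without gene names was matched by mean count (20107 of 21192 tested genes), and its log2 changes closed with the other tables to 1e-09. Differences between arms were computed here as the difference of 2 deposited log2 changes with the root of the summed squared errors, because no library enters both. They were tested by two-sided Wald tests, adjusted by Benjamini-Hochberg over the 18241 named genes whose mean FPKM reached 0.1. FPKM ratios used a pseudocount of 0.1. The design text calls the replicates biological. The plan had allowed for values per library. With summaries only, the deposited tests took their place. The members, the 5 pathway lists and the 7 marker lists were chosen with earlier results of these data known, and 1 gene of a marker list is not reported here. Named genes were all members, the 5 nearest to the member with the largest change, and genes of the lists. Pathway genes were taken from the 2 per list and comparison with the smallest adjusted p, and not all of these are named. Marker genes, Rai1 and genes that overlap a member were named outside this rule. Alternatives were other thresholds, filters, centring, errors and pseudocounts. Python 3.11.15, numpy 2.4.6, pandas 2.3.3, scipy 1.17.1 and matplotlib 3.10.9 were used.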

Additional observations from a re-analysis of the deposited data

Results flagged for a closer look

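The TTX response of Camk1g differed between the arms by -0.61 on the log2 scale, shRai1 minus shCtrl, which the Wald test of the difference itself called (adjusted p 0.0109). The response was a fall in both arms, by 0.63 in shCtrl and by 1.25 in shRai1 in the authors' deposited tables.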

How the results depend on the processing

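Over 470 values of single members under the alternatives, 460 kept their direction and their side of the threshold, 8 lost the call, 1 gained it and 1 reversed. The reversal was the TTX change of Camk2g in shCtrl, 0.0024 after centring on the median gene, where the largest shift of any comparison was -0.04. At an adjusted p of 0.01 the members called under TTX in shRai1 numbered 4 instead of 7, those under BIC in shCtrl 6 instead of 8 (without Camk1 and Camk4), and 0 instead of 1 for shRai1 against shCtrl in vehicle and for the TTX difference between arms. Without the filter on low genes 0 were called for shRai1 against shCtrl in vehicle. The adjusted p of Camk1g there ranged from 0.0354 to 0.0603 over the alternatives, and that of its TTX difference from 0.00960 to 0.0123. Other pseudocounts moved the 20 FPKM ratios by less than the bounds of the FPKM. Leaving out single libraries was not run, because the tables hold no values per library. No paired analysis was possible because the deposited tables give no values per library to which the replicate numbers could be tied. The depth of single libraries is unknown, and the knockdown contrasts have standard errors of 0.06 to 0.24.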
